A study of Mus musculus with 4 samples.

Results

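The mRNAs for the nuclear-encoded subunits of the mitochondrial oxidative phosphorylation complexes were examined in mouse embryonic fibroblasts (MEFs) with and without p53 and with and without doxorubicin. Members were all genes on the microarray whose name starts with Ndufa, Ndufb, Ndufc, Ndufs, Ndufv, Uqcr, Cox4i, Cox5, Cox6, Cox7, Cox8 or Atp5, together with Sdha, Sdhb, Sdhc and Sdhd. There were 87 such genes, read by 117 probes, of 31829 gene names and 39429 probes in all. They comprised 36 subunits of complex I, 4 of complex II, 7 of complex III, 12 of complex IV, 14 of complex V, 8 isoforms restricted to a tissue or a condition, and 6 genes that share a prefix but do not encode a subunit. The prefixes miss some subunits, such as Cyc1, and Uqcr10, which the array lists under an older name.

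The study compared 4 conditions, each with 1 Agilent 1-colour array: p53+/+ (WT) MEFs untreated, WT MEFs given doxorubicin, p53-/- (p53-null) MEFs untreated, and p53-null MEFs given doxorubicin. Doxorubicin is an anthracycline that damages DNA and so activates p53. The dose and the time of treatment used for the arrays, and the age and number of the embryos, are not given in the sources used here. Because each condition was 1 culture on 1 array, no difference between conditions has a replicate check, no p-value was computed, and genotype cannot be told apart from the culture it was measured in.

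Oxidative phosphorylation is the set of reactions by which mitochondria make ATP. Complexes I and II pass electrons from NADH and succinate to ubiquinone, complex III passes them to cytochrome c, and complex IV passes them to oxygen, while complexes I, III and IV pump protons that drive ATP synthesis by complex V. Most subunits are encoded in the nucleus and imported, a few are encoded by mitochondrial DNA, and several subunits of complex IV exist as a ubiquitous form and a form restricted to muscle, testis or lung.

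Values are the processed signals of the scanner files, in arbitrary fluorescence units. For ratios, each array was scaled to its 75th percentile (its upper quartile), which was 2074 in untreated WT, 1819 in treated WT, 1881 in untreated p53-null and 2421 in treated p53-null MEFs. Outlier spots numbered 145 to 168 of 43020 per array, and no spot was saturated. A gene was called measured in a comparison where its probe was well above background on both arrays, which held for 56.9% to 62.9% of probes per array. Repeat spots of 248 probes gave the only error available, a technical one: the log2 ratio of 2 arrays had an SD of 0.08. The processed signal of Trp53, the deleted gene, was 1228, 3442, 442 and 543 in untreated WT, treated WT, untreated p53-null and treated p53-null MEFs. It was thus lowest in both p53-null arrays but not at background, and whether the probe lies within the deleted part was not analysed here. All 10 fibroblast markers were well above background on the 4 arrays, their summed level lying between 563 and 837 times the upper quartile. The leukocyte, epithelial, endothelial and striated muscle lists summed to between 2.33 and 18.5 times it, and 4 of 7, 2 of 4, 2 of 4 and 4 of 6 of their genes were well above background on all 4 arrays, among them Itgam, Krt18, Kdr and Acta1. Of these lists, Epcam, Cdh5, Cd79a and Ckm were not well above background on any array, while Ptprc, Cd3e and Pecam1 were on all 4. With doxorubicin the median log2 ratio of the fibroblast markers stood at -0.61 in WT and -0.27 in p53-null. At least 2-fold lower were 4 of 10 and 2 of 10 of them, where 10.4% and 6.89% of all genes were. Lum (-4.81 and -2.34) and Pdgfrb (-2.44 and -1.73) were so in both. The part of these markers in the members' ratios was not tested.

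The members were bright as a group. All 4 arrays measured 84 of the 87, and 78 of these (92.9%) were brighter on average than the upper quartile, against 8446 of 16538 genes (51.1%) in all. The 3 others were Cox7b2, Cox8b and Cox8c, all restricted isoforms.

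Before the values, promoters of members that were at least 2-fold higher in treated than untreated WT MEFs are shown. RefSeq's promoter table (build GRCm38.p6) holds 72 of the 87 members. Of those at least 2-fold higher it has 5 and lacks Ndufa4l2 and Cox4i1. For these 5, the 250 bases before the transcription start are given 5′ to 3′ on the gene's strand. Cox6a1 and Atp5l are added as members with more than 1 kind of motif in the printed bases. Capitals mark matches, on either strand, to motifs of factors known to act on genes for respiratory chain subunits: NRF1 (GCGCATGCG), ETS/GABP (CCGGAAG), YY1 (AAGATGGC) and ERR (TCAAGGTCA).
Cox6b2 (chr7:4753095-4753344, minus strand): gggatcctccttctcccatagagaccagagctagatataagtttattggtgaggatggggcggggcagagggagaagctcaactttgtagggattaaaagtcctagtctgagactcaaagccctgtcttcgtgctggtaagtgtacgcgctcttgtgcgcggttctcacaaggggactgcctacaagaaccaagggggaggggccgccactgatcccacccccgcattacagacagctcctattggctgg
Cox7a1 (chr7:30183921-30184170, plus strand): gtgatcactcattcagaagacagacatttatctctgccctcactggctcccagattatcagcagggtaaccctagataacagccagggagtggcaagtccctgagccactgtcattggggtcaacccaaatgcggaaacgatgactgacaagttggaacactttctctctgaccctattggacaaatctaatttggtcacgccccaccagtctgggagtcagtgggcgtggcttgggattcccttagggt
Ndufb6 (chr4:40279422-40279671, minus strand): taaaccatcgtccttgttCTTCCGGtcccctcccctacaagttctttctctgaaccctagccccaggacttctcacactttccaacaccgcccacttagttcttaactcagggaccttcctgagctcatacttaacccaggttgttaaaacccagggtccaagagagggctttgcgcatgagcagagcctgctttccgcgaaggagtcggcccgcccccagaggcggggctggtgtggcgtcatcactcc
Ndufab1 (chr7:122101849-122102098, minus strand): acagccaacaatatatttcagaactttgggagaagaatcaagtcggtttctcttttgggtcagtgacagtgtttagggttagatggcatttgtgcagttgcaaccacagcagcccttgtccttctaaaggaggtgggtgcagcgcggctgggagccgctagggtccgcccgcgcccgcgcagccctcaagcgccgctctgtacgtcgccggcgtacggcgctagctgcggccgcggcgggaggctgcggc
Cox8a (chr19:7217617-7217866, minus strand): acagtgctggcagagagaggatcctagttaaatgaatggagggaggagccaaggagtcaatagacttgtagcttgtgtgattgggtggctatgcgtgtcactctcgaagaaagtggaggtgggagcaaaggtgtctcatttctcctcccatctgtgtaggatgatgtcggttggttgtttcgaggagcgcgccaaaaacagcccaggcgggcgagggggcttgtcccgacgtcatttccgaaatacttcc
Cox6a1 (chr5:115348959-115349208, minus strand): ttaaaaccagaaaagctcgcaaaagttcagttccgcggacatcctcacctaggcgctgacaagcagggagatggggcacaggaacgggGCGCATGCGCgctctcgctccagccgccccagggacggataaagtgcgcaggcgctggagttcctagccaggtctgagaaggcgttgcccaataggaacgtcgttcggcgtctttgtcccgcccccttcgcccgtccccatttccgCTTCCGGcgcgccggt
Atp5l (chr9:44920743-44920992, minus strand): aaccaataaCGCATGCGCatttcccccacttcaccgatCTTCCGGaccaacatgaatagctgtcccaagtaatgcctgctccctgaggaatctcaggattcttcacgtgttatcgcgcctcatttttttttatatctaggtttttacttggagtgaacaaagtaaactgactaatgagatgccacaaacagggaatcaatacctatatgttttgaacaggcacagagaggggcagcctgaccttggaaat

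In the first 5 of these sequences there was 1 match, the ETS/GABP letters in Ndufb6, from 232 to 226 bases before the start. Cox8a also held the ETS/GABP letters across its start and again after it. These lie partly or wholly past the printed bases and so are not in capitals. Cox6a1 held the NRF1 letters on both strands, overlapping, between 162 and 153 bases before its start, and Atp5l held them from 241 to 233. Over the whole window of 300 bases, which runs 50 bases past the start, the NRF1 letters were found in 9 of 72 members (12.5%) and 1.81% of 27025 promoters. The ETS/GABP letters were found in 16 members (22.2%, against 9.12% of all promoters), YY1 in 10 (13.9%, against 2.88%) and ERR in 2 (2.78%, against 0.407%). The YY1 letters were in 7 of 32 promoters of complex I, 2 of 13 of complex V and 1 of 6 of the genes that are not subunits. The NRF1 letters were in 2 of 32 of complex I, 2 of 4 of complex III and 1 of 10 of complex IV. They were also in 3 of 13 of complex V and 1 of 6 of the genes that are not subunits. None of the 4 restricted isoforms in the table, Cox6b2 and Cox7a1 among them, held any of these letters. The median GC content of the 250 bases was 57.0% over the members and 52.0% over all promoters.

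The first comparison asked what doxorubicin did in cells with p53. In WT MEFs the members lay slightly above other genes, and a few isoforms lay far above them. The median log2 ratio of treated over untreated was 0.20 over the 84 measured members and 0.01 over 17546 genes. Scaling to array medians moved the median of all genes to -0.27 and that of the members to -0.08, so the sign of the members' median depends on the scaling, while their distance from all genes stayed at 0.19. In p53-null MEFs the same scaling moved all genes to -0.30, so ratios below are best read against other genes, and those positive but smaller than these shifts are negative under it. With doxorubicin in WT MEFs, 7 of 84 members were at least 2-fold higher, where 11.0% of all genes were, and 1 was at least 2-fold lower, where 10.4% were. At 1.5-fold the members' counts were 19 higher and 5 lower, against 20.6% and 20.0% of all genes. The share of members higher was thus near the background, and the share lower was below it.

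In p53-null MEFs the members' median ratio of treated over untreated was 0.15, against 0.00 over 16981 genes, and it became -0.15 when arrays were scaled to their medians. There, 2 members were at least 2-fold higher (9.24% of all genes) and 1 at least 2-fold lower (6.89%). At 1.5-fold, 6 were higher (19.4%) and 4 lower (15.9%). Fewer members than the background share therefore passed either fold in p53-null MEFs.

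**Figure D1:**
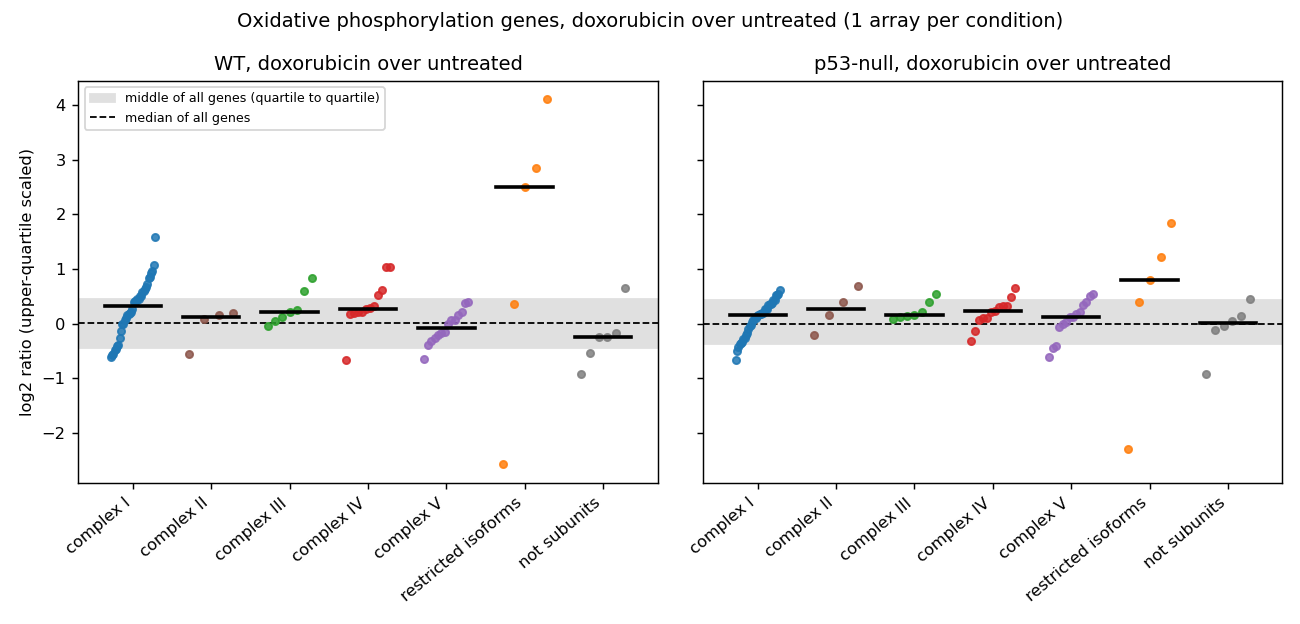
Log2 ratio of treated over untreated MEFs (y axis) for each measured member, grouped by complex (x axis), in WT (left) and p53-null MEFs (right). Points are genes, black bars group medians, the dashed line the median of all genes and the grey band its middle quartiles; the restricted isoforms reach furthest from it, from -2.58 to 4.11 in WT, and complex I extends above it in WT, to 1.59. Scaling to array medians moves all points by -0.27 in WT and -0.30 in p53-null.

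The restricted isoforms showed the largest differences among the members. Ndufa4l2, a paralogue of the complex IV subunit Ndufa4 known for its induction in hypoxia, gave a processed signal of 369 in untreated WT, 5571 in treated WT, 82.7 in untreated p53-null and 184 in treated p53-null MEFs. Treated WT stood alone, 17.2-fold above untreated WT after scaling (log2 4.11). In p53-null MEFs the log2 ratio was 0.79, on a signal that lay below the brightest negative control spot (250) before treatment. Of 17546 genes, 64 had a larger ratio in WT. Between genotypes in doxorubicin its log2 ratio was -5.34, and 17 of 17922 genes were further down. Its probe lies on chromosome 10 at 126954149 to 126954208 (mm9, plus strand).

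Cox6b2, the testis form of a complex IV subunit that faces cytochrome c, had signals of 7309, 46557, 1426 and 6626 in untreated WT, treated WT, untreated p53-null and treated p53-null MEFs. It was higher with doxorubicin in both genotypes and lower without p53 in both treatments. The log2 ratio of treated over untreated was 2.86 in WT and 1.85 in p53-null, and that of p53-null over WT was -2.22 untreated and -3.23 treated. Its ubiquitous counterpart Cox6b1 had ratios of 0.32 and 0.32 with doxorubicin and 0.06 and 0.06 between genotypes.

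Cox7a1, the heart and skeletal muscle form, had signals of 467, 2315, 331 and 993, highest in treated WT and lowest in untreated p53-null. Its log2 ratio with doxorubicin was 2.50 in WT and 1.22 in p53-null MEFs. Between genotypes it was -0.36 untreated and -1.63 treated. The ubiquitous form Cox7a2 had doxorubicin ratios of 0.29 and 0.65, so the 2 forms differed by more in WT than in p53-null.

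Cox6a2, another heart and muscle form, went the other way. Its signals were 2792, 410, 1293 and 340, lower with doxorubicin in both genotypes (log2 ratio -2.58 in WT, -2.29 in p53-null). It was the 1 member at least 2-fold lower with doxorubicin in either genotype. The ubiquitous Cox6a1 had ratios of 0.22 and 0.06, both negative under array-median scaling. Measured genes of the striated muscle marker list were also lower with doxorubicin (medians -2.24 in WT and -1.17 in p53-null). At least 2-fold lower were 4 of 4 in WT and 2 of 4 in p53-null, against 10.4% and 6.89% of all genes. The list's summed levels were 9.42, 3.77, 10.5 and 5.88 times the upper quartile over the arrays in the same order. Of these muscle genes, Ckm was well above background on 0 arrays and Myog on 1. Their part in the Cox6a2 result was not tested, and fewer cells of a type cannot be told apart from less RNA per cell.

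Among the other restricted isoforms, Cox4i2, the lung and hypoxia form, had signals of 385, 435, 423 and 714 and ratios of 0.36 and 0.39. Cox8c, a testis form, was well above background in treated WT alone (141), at least 2.85-fold above untreated WT, and Cox8b, a heart and muscle form, in treated p53-null alone (156), at least 2.10-fold above untreated p53-null. These bounds take the lowest signal well above background on the dim array. Cox7b2, a testis form, was not well above background on any array.

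**Figure D2:**
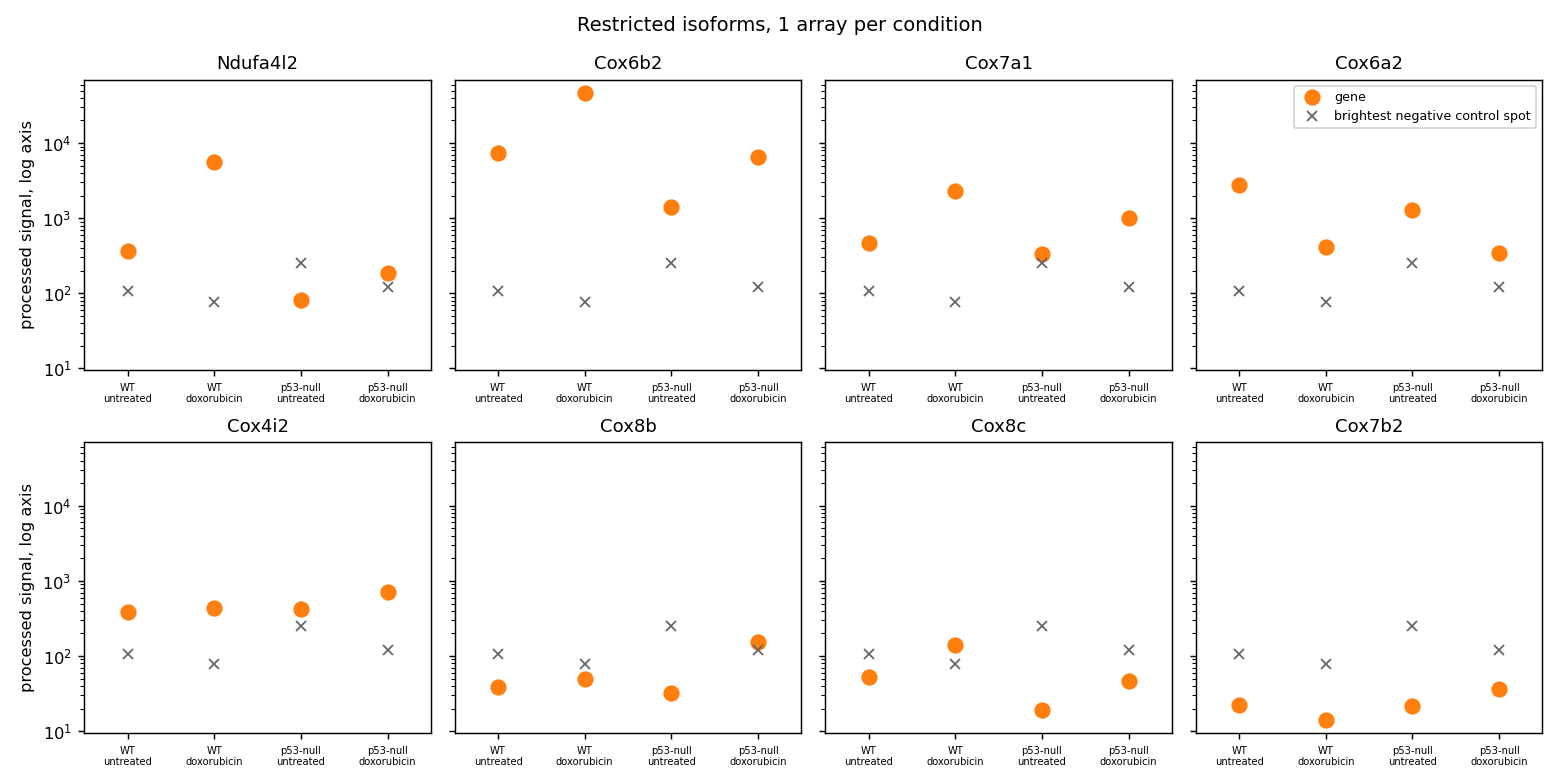
Processed signal (y axis, log scale) of the 8 restricted isoforms in the 4 conditions (x axis), 1 array each, with the brightest negative control spot of that array as a grey cross. Ndufa4l2, Cox6b2 and Cox7a1 are highest in treated WT, Cox6a2 is lower in both treated arrays, and Cox7b2 stays under the crosses.

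Complex I, the NADH dehydrogenase, lay above other genes in WT MEFs given doxorubicin. The median over its 36 genes stood at 0.33 in WT (0.05 scaled to array medians), with 25 above 0 and 11 below, and 10 at least 1.5-fold higher, where 20.6% of all genes were. In p53-null MEFs the median was 0.15 (-0.15 scaled to array medians), and 1 was at least 1.5-fold higher, where 19.4% of all genes were. The 19 genes of the membrane arm, which pumps protons, had medians of 0.40 in WT and 0.17 in p53-null, and 7 of them were at least 1.5-fold higher in WT. The 16 of the peripheral arm, which takes electrons from NADH, had medians of 0.16 and 0.15, both negative under array-median scaling, and 2 were at least 1.5-fold higher in WT. Both counts stand beside the same 20.6% of all genes.

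Ndufb6, an accessory subunit of the membrane arm, had signals of 25956 in untreated WT, 68289 in treated WT, 21319 in untreated p53-null and 39540 in treated p53-null MEFs. It was higher with doxorubicin in both genotypes, by log2 1.59 in WT and 0.53 in p53-null. A second probe at another place in the gene gave 1.62 and 0.61.

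Ndufab1, the mitochondrial acyl carrier protein that sits in both arms, had signals of 3248, 5962, 2191 and 2354. Treated WT was the highest of the 4 arrays. Its log2 ratio was 1.07 in WT and -0.26 in p53-null MEFs, and -1.75 between genotypes in doxorubicin.

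Ndufc2 and Ndufb2, both of the membrane arm, were also highest in treated WT. Ndufc2 gave 37057, 61458, 27559 and 27922, and its log2 ratio was 0.92 in WT but -0.35 in p53-null. Ndufb2 gave 37207, 51873, 24546 and 22238, with ratios of 0.67 and -0.51. In both, the p53-null arrays were below the WT ones. Ndufa13, a membrane-arm subunit also known as GRIM-19, had ratios of 0.73 and 0.07, the second of which is negative under array-median scaling.

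Ndufs1, the largest iron-sulfur subunit, gave 27600, 24069, 24349 and 31958, with ratios of -0.01 and 0.03. Ndufv1, which binds NADH, had ratios of 0.21 and 0.36, the first of which is negative under array-median scaling. Ndufs8, an iron-sulfur subunit, was lower in both genotypes (-0.58 and -0.66), and the accessory Ndufv3 had the lowest ratio of complex I in WT (-0.62, against 0.14 in p53-null). Ndufa7 had the highest ratio of complex I in p53-null (0.61, against 0.64 in WT).

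Complex II, succinate dehydrogenase, had median ratios of 0.12 in WT and 0.27 in p53-null MEFs over its 4 genes, both negative under array-median scaling (-0.16 and -0.03). Sdha, the flavoprotein, was lower in both, at -0.56 and -0.21, with signals of 21502, 12795, 17729 and 19693. Sdhb, the iron-sulfur subunit, had ratios of 0.08 and 0.39, and the membrane anchors Sdhc and Sdhd had 0.15 and 0.19 in WT and 0.15 and 0.69 in p53-null. Sdhd was the 1 of 4 genes of complex II past 1.5-fold, in p53-null, where 19.4% of all genes were at least 1.5-fold higher. Array-median scaling puts it below 1.5-fold. The signals of Sdhd were 19665, 19635, 15914 and 32995, highest in treated p53-null.

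Complex III, which oxidises ubiquinol, had medians of 0.21 and 0.16, which became -0.06 and -0.14 under array-median scaling. Uqcrc1, a core protein, was highest of its 7 genes in WT, at 0.83 against 0.16 in p53-null, with signals of 15882, 24798, 16836 and 24186. Uqcrh, the hinge protein, was higher in both genotypes, at 0.59 and 0.54. Uqcrfs1, the Rieske protein, had ratios of 0.05 and 0.39, and Uqcrb -0.05 and 0.21. Uqcrc2, the other core protein, was spotted 10 times on each array, and its scaled log2 level was 3.76 ± 0.03, 3.89 ± 0.02, 3.60 ± 0.03 and 3.69 ± 0.03 (SD of 10 spots) in untreated WT, treated WT, untreated p53-null and treated p53-null. Its doxorubicin ratios of 0.13 and 0.09 thus exceed the spread of its spots within an array, which does not cover the spread between cultures, and both turn negative under array-median scaling.

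Complex IV, cytochrome c oxidase, had a median of 0.27 in WT over its 12 ubiquitous genes (-0.00 scaled to array medians), with 11 above 0, and 0.23 in p53-null (-0.07). Cox4i1, a ubiquitous regulatory subunit, gave signals of 153569, 274917, 109542 and 164485. Treated WT was highest, the log2 ratio being 1.03 in WT against 0.22 in p53-null. Cox8a, the smallest subunit, was similar, with signals of 144127, 257823, 129529 and 178904 and ratios of 1.03 and 0.10. A second Cox8a probe gave 1.06 and 0.24. The p53-null ratios of Cox4i1 and Cox8a are negative under array-median scaling.

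Of the other ubiquitous subunits, Cox5a had ratios of 0.26 in WT and 0.31 in p53-null, Cox5b had 0.62 and 0.32, and Cox6c had 0.22 and 0.24, in WT below those of Cox4i1 and Cox8a and in p53-null above them. Ndufa4 itself had 0.52 and 0.49. Cox7a2l, which takes part in joining complexes III and IV into supercomplexes, stood apart, with signals of 64358, 35489, 32023 and 33269. Untreated WT was the highest array, with scaled log2 ratios of -0.67 in WT, -0.31 in p53-null and -0.87 between the untreated genotypes. Its 2 other probes gave -0.66 and -0.74 in WT, of which the first overlaps the probe used for the gene.

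Complex V, the ATP synthase, lay lowest of the 5 complexes in WT MEFs given doxorubicin. Its 14 genes had a median of -0.08 in WT (6 above 0 and 8 below) and 0.12 in p53-null (10 above 0), the latter -0.18 under array-median scaling. None was at least 1.5-fold higher in either, where 20.6% and 19.4% of all genes were. Atp5a1, Atp5b and Atp5c1, the alpha, beta and gamma subunits of the catalytic head, had ratios of -0.32, -0.15 and -0.65 in WT. In p53-null they had 0.00, 0.03 and -0.44, the first 2 of which are negative under array-median scaling. Atp5c1, with signals of 46914, 26194, 34469 and 32785, was lower with doxorubicin in both. Of the c-ring genes, Atp5g2 had -0.39 and -0.62, and Atp5g3 -0.27 and 0.12. The highest ratios were those of Atp5k, subunit e, in WT (0.39) and of Atp5o, which joins the head to the stalk, in p53-null (0.55). In complex V, 12 of 14 genes had a lower ratio in WT than in p53-null, with a median difference of -0.16. In complex I, 24 of 36 had a higher one, with a median difference of 0.07. Of 16538 genes in all, 8116 had a lower and 8422 a higher one, with a median of 0.01. Repeat spots gave such a difference a technical SD of 0.12 for 1 gene. The median difference of neither complex was tested.

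**Figure D3:**
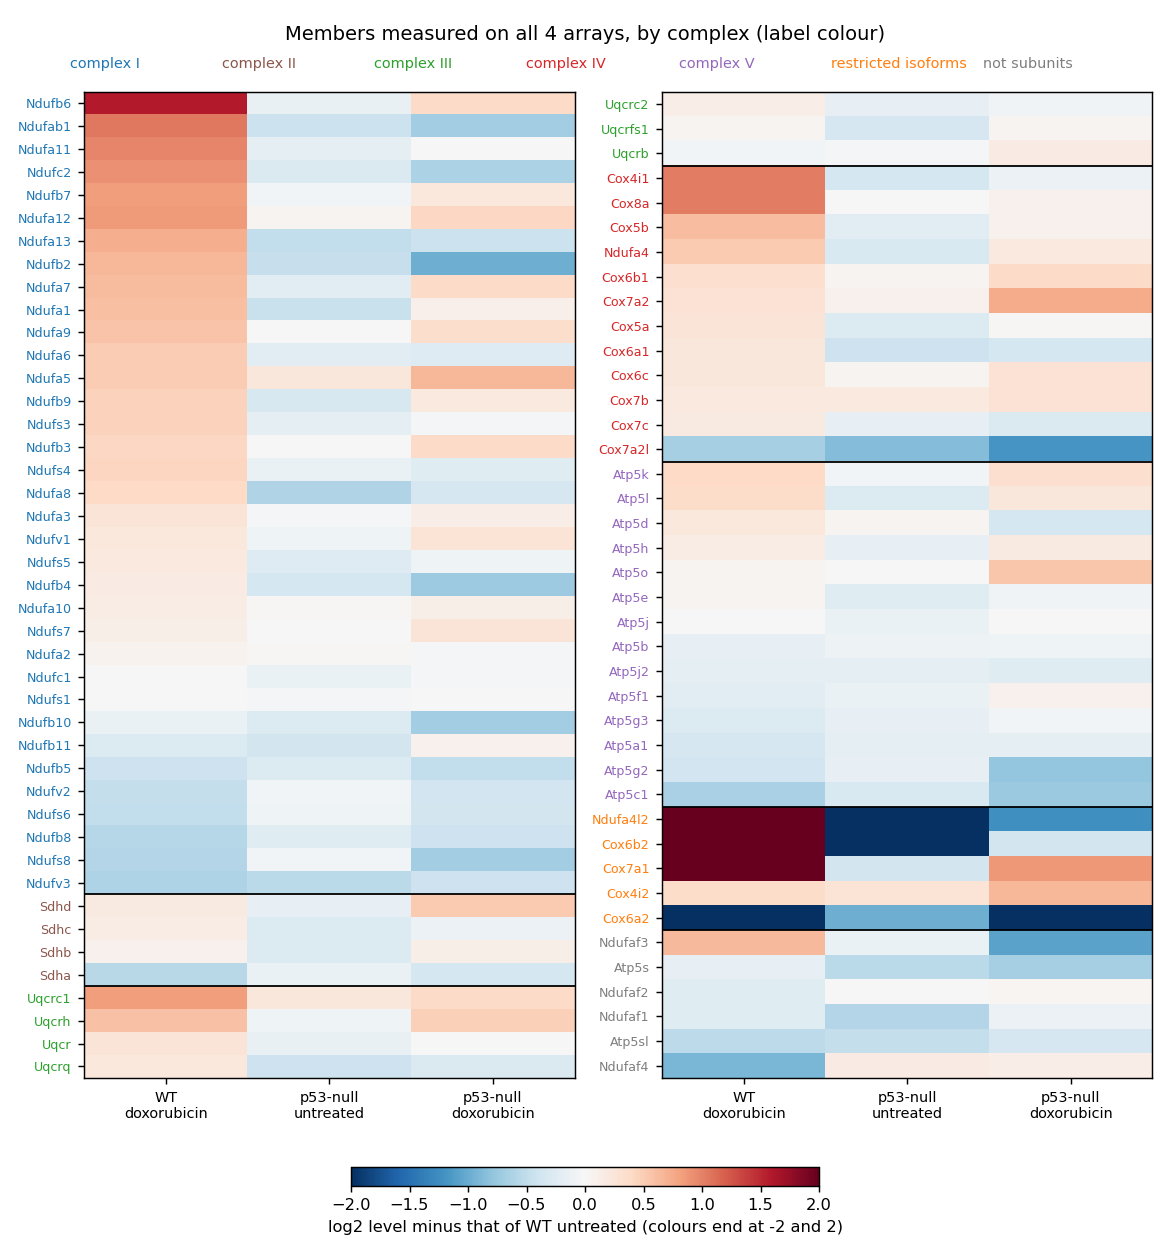
Scaled log2 level of the members shown, all measured on all 4 arrays, minus the level in untreated WT MEFs, in the other 3 conditions (columns); rows are genes, ordered within each complex by their ratio in WT, and label colours give the complex. Red is higher and blue lower, with colours ending at -2 and 2. In the treated WT column most genes of complexes I to IV are above 0, against 6 of 14 of complex V. These signs depend on the scaling: scaled to array medians, the medians of complexes I to V are 0.05, -0.16, -0.06, -0.00 and -0.36.

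The second comparison set p53-null against WT MEFs. Without doxorubicin, 71 of 84 members lay below 0, against 8705 of 17317 genes in all. The members' median log2 ratio was -0.17, against 0.00 over all these genes and -0.06 over the genes brighter than the upper quartile. The differences were small: 0 members were at least 2-fold higher (2.15% of all genes) and 2, Cox6b2 and Ndufa4l2, at least 2-fold lower (2.62%). At 1.5-fold, 0 were higher (8.73%) and 5 lower (8.68%). By complex the medians were -0.19 for complex I, -0.21 for II, -0.15 for III, -0.19 for IV and -0.16 for V. All 4 genes of complex II and 13 of 14 of complex V were below 0. Under quantile normalization the members' median was -0.10.

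With doxorubicin, the members' median for p53-null over WT was -0.12, against 0.00 over 17922 genes, and it was -0.01 after quantile normalization. At least 2-fold lower were 10 members, where 10.3% of all genes were, and 1 was at least 2-fold higher, where 11.9% were. At 1.5-fold, 18 were lower (19.7%) and 1 higher (22.8%). The share lower was near the background and the share higher was below it. The 10 were Ndufa4l2, Cox6b2, Cox7a1, Ndufab1, Ndufb2, Ndufc2, Ndufb6, Ndufa13, Cox4i1 and the assembly factor Ndufaf3, and their ratios ran from -5.34 to -1.15. The 1 higher was Ndufaf4, another assembly factor of complex I, at 1.06, with signals of 7894, 3650, 8069 and 10119.

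The 2 arms of complex I differed in this comparison. The membrane arm had a median of -0.50, with 17 of 19 below 0 and 8 at least 1.5-fold lower. The peripheral arm had a median of -0.05, with 9 of 16 below 0 and 2 at least 1.5-fold lower, and its median was 0.10 after quantile normalization. Of all genes, 8958 of 17922 were below 0 and 19.7% were at least 1.5-fold lower. Complex IV had a median of -0.40, complex III -0.20, complex II 0.12 and complex V -0.03, the last of which was 0.11 after quantile normalization. No test of the difference between arms was made.

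**Figure D4:**
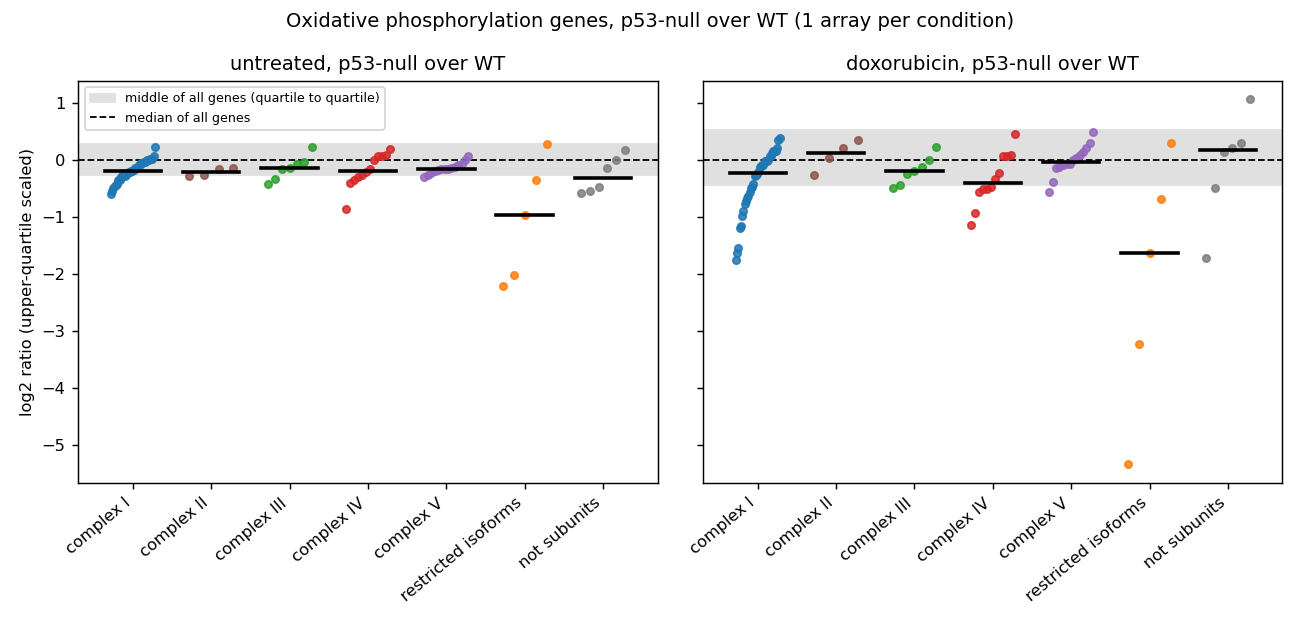
Log2 ratio of p53-null over WT MEFs (y axis) for each measured member, by complex (x axis), untreated (left) and with doxorubicin (right); points, bars, dashed line and grey band are as in the plot of doxorubicin ratios. Untreated values cluster just below 0, and with doxorubicin complexes I and IV extend downward to -1.75 and -1.15. Quantile normalization puts the complex V median with doxorubicin at 0.11 in place of -0.03.

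Each member's doxorubicin ratio in WT was also set against that in p53-null MEFs, from 4 separate arrays. The difference of ratios exceeded 1 in 8 of 84 members (9.52%, against 8.38% of 16538 genes) and was below -1 in 0 (against 9.86%). The 8 were Ndufa4l2 (3.32), Ndufaf3 (1.57), Ndufab1 (1.33), Cox7a1 (1.28), Ndufc2 (1.26), Ndufb2 (1.18), Ndufb6 (1.06) and Cox6b2 (1.01). Across genes, which are not independent replicates, the ratios of the 2 genotypes correlated with Pearson's r of 0.64 and Spearman's rho of 0.46 over 84 members, and 0.32 and 0.37 over the 79 that are not restricted isoforms.

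Where a gene had several probes, most pairs gave like values. For 23 members with more than 1 probe, 30 pairs differed by a median of 0.05 in the WT doxorubicin ratio and 0.08 in the p53-null ratio, and 28 and 29 pairs had the same sign. In each doxorubicin ratio 1 pair was more than 1.5-fold apart, and it was of Ndufb11. The probe used for it and a probe overlapping it gave -0.27 and -0.25 in WT and 0.43 and 0.46 in p53-null, while the remaining, dim probe (77.5 to 453) gave -1.13 and 1.21. For p53-null over WT untreated the pair furthest apart was of Ndufb5, at -0.28 and 0.34.

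The subunits encoded by mitochondrial DNA are labelled and measured on the same arrays, and 12 of the 13 were found by name. In WT MEFs 11 of 12 had a ratio of treated over untreated above 0 (8893 of 17546 genes in all), with a median of 0.18. In p53-null MEFs all 12 were below 0 (8480 of 16981 genes in all), with a median of -0.28. Under array-median scaling the medians were -0.10 and -0.58. The ratio in WT was the higher in 12 of 12, by a median of 0.47 (0.49 scaled to array medians). It was the higher in 8422 of 16538 genes in all, where the median difference was 0.01. The upper quartile fell with doxorubicin in WT (2074 to 1819) and rose in p53-null MEFs (1881 to 2421). Relative to unscaled signals, scaling to it thus raised WT ratios and lowered p53-null ones, for all genes alike. ND5, a proton-pumping subunit of complex I, had signals of 10810, 22735, 24135 and 30503, lowest in untreated WT, and ratios of 1.26 and -0.03. ND1 had 16536, 20749, 39439 and 33677, highest in untreated p53-null, and ratios of 0.52 and -0.59. COX1, the catalytic subunit of complex IV, had signals of 369302, 360248, 347926 and 379941 and ratios of 0.15 and -0.24. In each genotype its unscaled signal and its scaled ratio thus went in opposite directions. CYTB, of complex III, had ratios of 0.20 and -0.32. Between untreated genotypes, ND1, ND5 and ND2 were higher in p53-null at 1.39, 1.30 and 1.01. They were the 3 of 12 at least 2-fold higher, where 2.15% of all genes were.

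Electron carriers and assembly factors are given for the same pathway. Cycs, cytochrome c, had ratios of 0.79 and 0.49, and Cyc1, cytochrome c1, 0.16 and 0.33. Of 14 complex I assembly factors, 1 was at least 2-fold higher in WT (Acad9, 1.20) and 1 lower (Foxred1, -1.03), against 11.0% and 10.4% of all genes, and 0 passed 2-fold in p53-null, against 9.24% and 6.89%. Of 4 for complex II, 1 passed, Sdhaf1, at 1.35 in WT and 0.08 in p53-null, against the same shares of all genes. Of the 5 measured for complex III and the 16 for complex IV, 0 passed 2-fold with doxorubicin in either genotype, again against those shares. Sco2, a copper chaperone of complex IV known as a p53 target, had signals of 5665, 9401, 5183 and 7553 and ratios of 0.92 and 0.18. The phosphate and nucleotide carriers Slc25a3, Slc25a4 and Slc25a5 had 0.43, -0.77 and -0.31 in WT, and 0.03, -0.26 and 0.00 in p53-null.

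Of 14 measured regulators of mitochondrial biogenesis, 4 were at least 2-fold higher with doxorubicin in WT and 0 lower, against 11.0% and 10.4% of all genes, and 1 was higher and 1 lower in p53-null, against 9.24% and 6.89%. Their median ratio was -0.02 in WT, with 7 above 0 and 7 below, and 0.20 in p53-null. Scaled to array medians, these medians were -0.30 and -0.10. That scaling also puts Esrra, Polrmt and Twnk below 2-fold in WT. Ppargc1a, the PGC-1alpha coactivator, had signals of 105, 469, 102 and 463, higher with doxorubicin in both genotypes at 2.36 and 1.82, although both untreated signals lay below the brightest negative control spot of their array (108 and 250). Esrra, the nuclear receptor ERR alpha, had 9264, 18057, 4996 and 6050, highest in treated WT, with ratios of 1.15 and -0.09. Polrmt, the mitochondrial RNA polymerase, had 1.02 and -0.27, and Twnk, the mitochondrial helicase, 1.02 and 0.75. Nrf1 had -0.38 and -1.01, Tfam 0.02 and 0.62, and Yy1 0.35 and 0.36. These lists were chosen with earlier results of the same data known, and their counts carry no test.

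**Figure D5:**
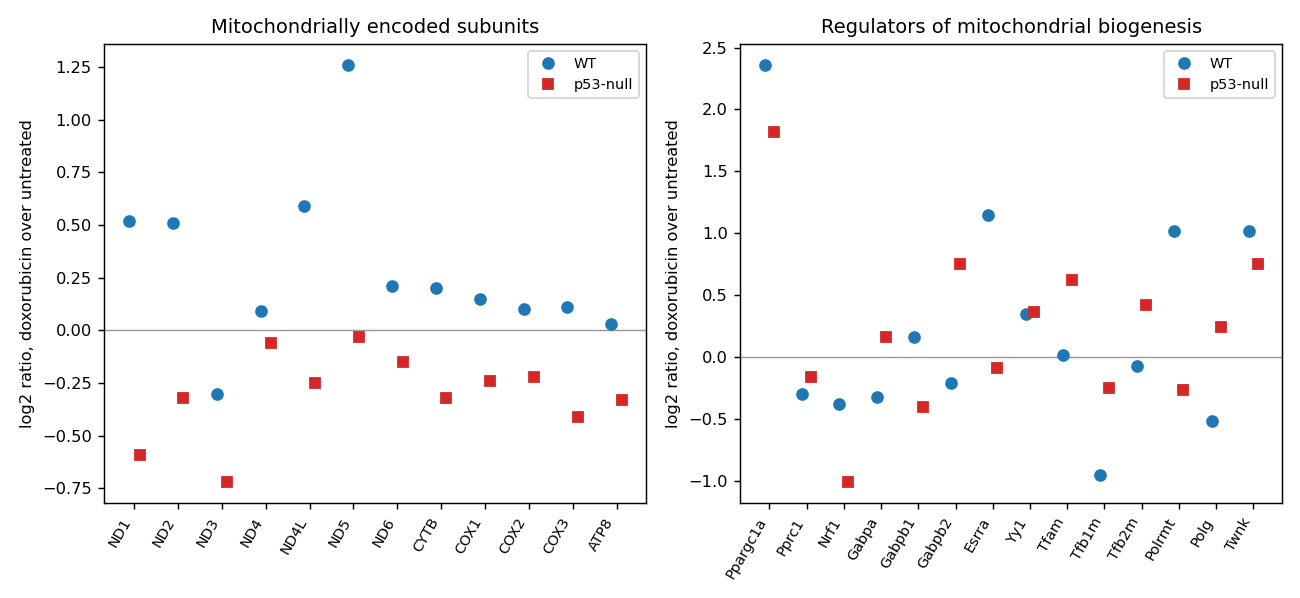
Log2 ratio of treated over untreated MEFs (y axis) for the 12 mitochondrially encoded subunits (left) and the 14 measured regulators of mitochondrial biogenesis (right), in WT (blue circles) and p53-null MEFs (red squares), 1 array per condition. For every mitochondrially encoded subunit the WT point is above the p53-null point. The upper quartile used for scaling fell with doxorubicin in WT and rose in p53-null, and scaling to it shifts all genes of a genotype alike. Scaling to array medians moves WT points by -0.27 and p53-null points by -0.30.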

How the data were processed

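Total RNA (200 ng) of each culture was labelled with Cy3 from an oligo-dT primer and hybridised to 1 of 4 arrays on 1 slide. The deposited scanner files, made by the authors with Agilent Feature Extraction 10.7.3.1, hold the processed signal as an intensity, and per the file headers also flags (0 or 1) for outlier, saturated and well-above-background spots. The deposited value table held the same intensity values (177588 of 177588 equal within a relative tolerance of 1e-06).

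From these, control and outlier spots were left out, spots of a probe averaged, and log2 of the signal taken minus the array's 75th percentile. The probe of highest mean stood for a gene, which counted as measured if the well-above-background flag was set on both arrays compared. Counts past 2-fold and 1.5-fold and medians were set beside all genes. With 1 array per condition there was no test, and the number of arrays limits precision. A probe well above background on 1 array of a comparison was given as a bound. All 87 members were matched to RefSeq. Genes named were those past 2-fold in any comparison, the highest and lowest of each complex with doxorubicin, fixed core subunits and the isoform families, with a second probe or pathway genes named beside them. Members and lists were chosen with earlier results of these data known. Alternatives used array medians, quantile normalization, normexp (limma 3.58.1, R 4.3.3, offset 50), other filters, folds, probes and member sets, and the deposited table. The remaining analysis used Python 3.11.15, pandas 2.3.3 and numpy 2.4.6 and was tested on simulated data. Probe coordinates are those of the files (mm9), and promoters are from RefSeq (GRCm38.p6). The counts and medians include 1 member whose own values are not reported here.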

Additional observations from a re-analysis of the deposited data

Results flagged for a closer look

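Ndufaf3, an assembly factor of complex I, was picked out because it was at least 1.5-fold higher with doxorubicin in WT and at least 1.5-fold lower in p53-null MEFs, the 1 member of 84 to be so. Its processed signal was 1194 in untreated WT, 1638 in treated WT, 978 in untreated p53-null and 664 in treated p53-null MEFs. The log2 ratio of treated over untreated was 0.65 in WT and -0.92 in p53-null, a difference of 1.57. Of all genes, 20.6% were at least 1.5-fold higher in WT and 15.9% at least 1.5-fold lower in p53-null. The share meeting both is not given here. Scaling to array medians puts the WT ratio of Ndufaf3 below 1.5-fold. With 1 array per condition, the difference between genotypes was not tested.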

How the results depend on the processing

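The deposited value table gave the same values, and no named gene's value past the fold was reversed under any alternative. Scaled to array medians, the members' median was -0.08 in WT and -0.15 in p53-null with doxorubicin, with 4 higher and 2 lower by 2-fold in WT, 1 higher and 2 lower in p53-null, and 0 higher for p53-null over WT in doxorubicin. For that last comparison quantile normalization gave a median of -0.01 (-0.03 against all genes), and genes brighter than the upper quartile gave -0.04 against all such genes. Normexp left 1 member 2-fold higher in p53-null, and no filter on dim probes gave 2 higher for p53-null over WT in doxorubicin. Among bright genes, 0 were 2-fold lower in WT, 1 higher and 0 lower in p53-null, and 1 lower for p53-null over WT untreated. At 1.5-fold, 19 were higher and 5 lower in WT, 6 and 4 in p53-null, 5 lower between untreated genotypes and 18 lower between treated ones. At 3-fold, 4 were higher in WT, 1 in p53-null, and 0 higher and 6 lower between treated genotypes. The shares of all genes at 3-fold are not given here, so these counts cannot be set against a background. Structural subunits alone gave 0 higher between treated genotypes. Without the restricted isoforms, an alternative chosen after seeing the data, 4 were 2-fold higher and 0 lower in WT, 0 and 0 in p53-null, and 0 lower between untreated genotypes. The cause of these changes was not tested, except that fewer genes enter the last 2. The other alternatives kept the counts within 1.5 times. No paired analysis was possible because each condition has 1 array, and the slide was not used as a block because all 4 arrays share it. Signals near the negative controls, as for Ndufa4l2 in untreated p53-null MEFs, limit how far a ratio can be read.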
